A study of Polypedilum vanderplanki with 33 samples.

Results

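The comparison described here sets fully dried larvae of the sleeping chironomid Polypedilum vanderplanki against larvae that had been drying for 40 h, by RNA-seq of whole larvae. It covered the last recorded step of drying and used 7 of the 33 libraries of a series that followed a cycle of drying and rewetting. The dry state pooled 4 libraries, chosen by title, namely 2 labelled as 48 h of dehydration and 2 labelled as 0 h of rehydration. The other side of the comparison was 3 libraries titled as 40 h of dehydration. All 7 held polyadenylated RNA from whole larvae of inbred stock reared on an agar and milk diet, the labels name no transgene or added agent, and they differed in the stage and length of treatment and in batch. The title of the series places the study in heat shock regulation during desiccation, and the step from 40 h to the dry state bears on whether the messenger RNA pool was still changing at the end of drying.

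Larvae of this midge survive the loss of nearly all their body water, a state called anhydrobiosis. As background, slow drying lets them build up trehalose, a sugar that takes the place of water and turns into a glass, together with late embryogenesis abundant proteins, heat shock proteins and antioxidant enzymes that shield membranes and proteins. Metabolism stops in the dry larva and resumes within hours of rewetting, so the messenger RNA present in the dry state is also what the larva holds when water returns. The deposited gene models carry no names, so none of these families could be counted here, and models are given by an ID or by their place in the deposited annotation, with positions counted from 1.

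Libraries were checked first. Total counts lay between 20869597 and 34179203 in the 7 libraries, and each state held libraries of both of the batches given in the labels. Replicate 2 at 40 h, from batch 2, has a title that says 40 h and a duration label that says 48 h, so values without it are given beside the results. It is the only 40 h library of batch 2. With the batch term, fold changes without it therefore come from the libraries of batch 1 alone. Replicate 2 at 48 h stood apart from the rest, with 14232 models detected and a mean Pearson correlation of 0.887 with the other 6 libraries across genes, while the other libraries detected between 16237 and 20495 models and had mean correlations of 0.925 to 0.940. Dry libraries correlated with 40 h libraries at 0.878 to 0.955, dry libraries with each other at 0.885 to 0.962, and 40 h libraries with each other at 0.926 to 0.936, across genes, which are not independent replicates. Without replicate 2 at 48 h, dry libraries correlated with 40 h libraries at 0.925 to 0.955 and with each other at 0.942 to 0.962. Dry libraries detected 16988 ± 1945 models (SD, n = 4) and 40 h libraries 18131 ± 2168 (SD, n = 3), a difference within the spread (exact permutation test, two-sided, p = 0.514, where 4 libraries against 3 cannot give less than 0.0571). The labels do not state whether replicates were separate cultures or batches of animals, so the p-values here rest on the spread between these libraries, and that spread may be technical only.

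A single gene model passed the threshold. PvG032109 fell in the dry state, and no model rose. Of 11980 models tested, 1 was lower (0.00835%) and 0 were higher (0%) at an adjusted p under 0.05 by edgeR's quasi-likelihood test and the Benjamini-Hochberg adjustment. At an unadjusted p under 0.05, 309 models were lower (2.58%) and 316 higher (2.64%), 625 in all. If no model differed and p-values were uniform, 599 would be expected. The same 599 applies to 0 h of rehydration against 48 h of dehydration, with 168 higher and 103 lower. It also applies to each label against 40 h, with 111 higher and 192 lower at 0 h of rehydration and 221 and 402 at 48 h. The 599 is thus a rough mark, and whether the p-values are uniform was not tested. DESeq2 called 23 models higher and 2 lower.

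PvG032109 lies on scaffold 78037 (30910 to 33121, plus strand), has 9 exons and overlaps no other model. It had 5.0 and 6.15 CPM (counts scaled to the library's total counts) in the 48 h libraries and 4.58 and 6.23 CPM in the 0 h rehydration libraries, against 25.4, 26.9 and 21.3 CPM in 40 h replicates 1, 2 and 3. All 4 dry libraries lay within a narrow band far below all 3 of the 40 h libraries. The log2 fold change was -2.0 (SE 0.24, 95% interval -2.52 to -1.48), a 4.0-fold lower level (edgeR quasi-likelihood test, Benjamini-Hochberg adjusted p = 0.0471). The call rested on all 7 libraries, since the adjusted p lay between 0.0615 and 0.265 when any of them was left out. Without 40 h replicate 2, where batch 1 alone sets the fold change, the log2 fold change was -2.18 and the adjusted p 0.220 by the same test. In whole larvae, fewer cells of a type and less RNA per cell cannot be told apart.

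Over the whole cycle, PvG032109 was high in the first day of drying and low around the dry state. It averaged 460, 532, 530 and 679 CPM at 8, 12, 16 and 24 h of dehydration, had 131 CPM in the 32 h library and 4.65 CPM in the 36 h library, and averaged 24.5 CPM at 40 h. The fall by the dry state thus came after a far larger drop, and the 36 h library already stood as low as the dry libraries, so the levels from 32 h on did not move one way. After rewetting the model had 7.61 CPM in replicate 1 at 1 h and 0 CPM in replicate 2, a library that detected only 8035 models. It averaged 23.1 CPM at 3 h, and had 48.3, 76.7, 994 and 62.7 CPM in the single libraries of 6, 12, 24 and 48 h. The 0 h libraries of undried larvae disagreed, with 2.90 and 168 CPM.

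Its neighbour on the same strand had the same course. This model (28825 to 30908, 5 exons) ends 1 base before PvG032109 begins. It had 1.35, 3.92, 2.18 and 2.06 CPM in the dry libraries, against 14.5, 15.1 and 9.19 CPM in 40 h replicates 1, 2 and 3. The groups did not overlap, and the log2 fold change of -2.39 (SE 0.39) did not pass (edgeR quasi-likelihood test, Benjamini-Hochberg adjusted p = 0.201). Its mean was 366 CPM at 24 h, with 1.72 CPM in the 36 h library and 235 CPM in the library of 24 h of rehydration. Reads across so short a gap can be split between neighbouring models, and whether the 2 models are one transcript was not tested. On the other side of it lies a pair of models that overlap on opposite strands and differed the other way. The plus strand one (23672 to 26255) had 825, 899, 897 and 610 CPM in the dry libraries, against 532, 501 and 674 CPM in 40 h replicates 1, 2 and 3. The minus strand one (25990 to 26515) had 428, 422, 472 and 298 CPM in the dry libraries, against 279, 200 and 361 CPM. In both, 3 dry libraries were above every 40 h library and 1 dry library was not, and neither passed, with log2 fold changes of 0.77 and 0.85 (edgeR quasi-likelihood test, Benjamini-Hochberg adjusted p = 0.530 for each). The model on the far side of PvG032109 (34470 to 41211, minus strand) had 2.10 to 3.65 CPM in the dry libraries, against 2.99 to 11.9 CPM at 40 h, and the ranges overlapped.

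**Figure D1:**
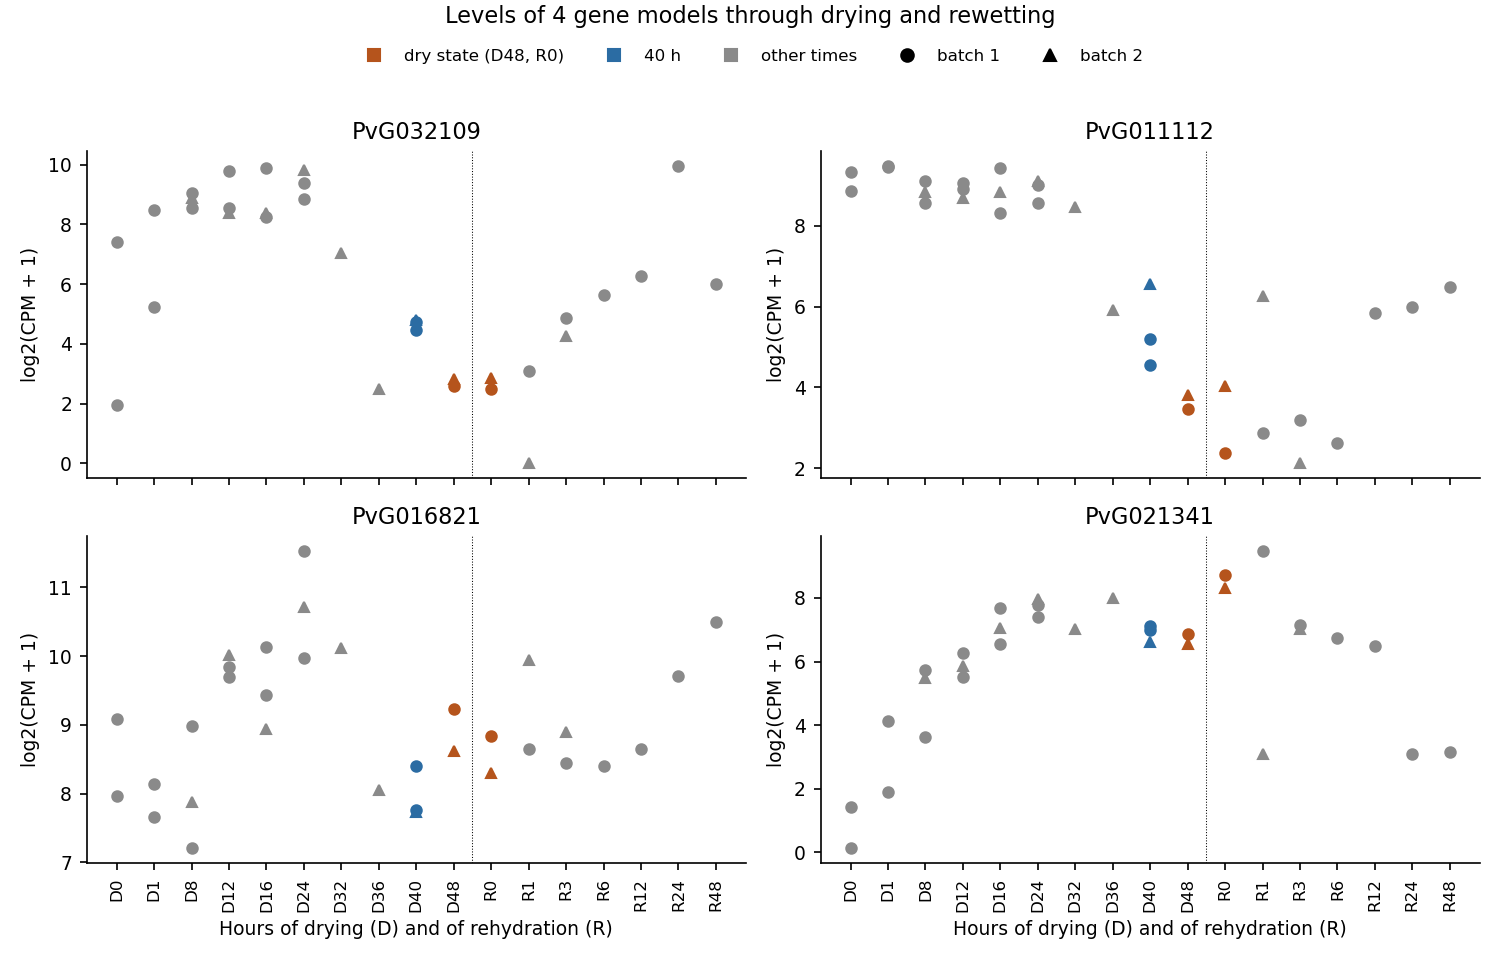
Level of PvG032109, PvG011112, PvG016821 and PvG021341 in every library, as log2(CPM + 1), against hours of drying (D) and of rehydration (R). Points are single libraries, orange for the dry state, blue for 40 h and grey for other times, circles for batch 1 and triangles for batch 2. PvG032109 and PvG011112 are lower in all 4 dry libraries than in all 3 of the 40 h libraries, and PvG021341 is high at 0 h of rehydration and not at 48 h of dehydration.

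The remaining models were chosen after their values were seen, as those with the lowest p-values in each direction, and none of them passed. Among the 10 lower models with the lowest p-values, PvG032109 included, log2 fold changes ran from -2.39 to -1.08 with adjusted p-values of 0.0471 to 0.530 (edgeR's quasi-likelihood test and the Benjamini-Hochberg adjustment), and the CPM of the groups did not overlap in 9 of the 10. Over all models tested, dry libraries were all below the 40 h libraries in 6.14% and all above in 0.551%, on CPM that were not rescaled between libraries. With TMM-scaled CPM the shares were 3.63% below and 2.18% above. All 10 were also called lower in the dry state than at 24 h of drying, a comparison that uses the same dry libraries and called 20.9% of all its models lower, and their means ran from 2.38 to 111 CPM in the dry state and from 11.3 to 292 CPM at 40 h.

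PvG011112 was the next of these, a 2-exon model on scaffold 2098 (3535 to 4566, plus strand) that overlaps no other. It had 10.1 and 13.1 CPM at 48 h of dehydration and 4.23 and 15.5 CPM at 0 h of rehydration, against 36.0, 94 and 22.7 CPM in 40 h replicates 1, 2 and 3. The groups did not overlap, but the 40 h libraries were spread over a wide range, with the library of uncertain duration highest. The log2 fold change was -2.09 (SE 0.31), with an adjusted p of 0.193 by edgeR's quasi-likelihood test and the Benjamini-Hochberg adjustment, and it was -1.92 without 40 h replicate 2. It passed in 2 of 21 alternatives, at 0.0223 when libraries were scaled by total counts only and at 9.17e-16 with no filter on low counts. Unlike PvG032109 it was abundant before drying, with means of 557 CPM at 0 h and 481 CPM at 24 h, and had 351 CPM in the 32 h library and 59.3 CPM in the 36 h library. After rewetting it stayed well below its level before drying, with means of 41.3 CPM at 1 h and 5.75 CPM at 3 h. The 1 h mean includes replicate 2, which detected only 8035 models. It had 5.22, 56.3, 62.2 and 88.6 CPM in the libraries of 6, 12, 24 and 48 h.

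A second model of the same scaffold (6967 to 7969, minus strand) was also among the 10. It had 14.8, 14.5, 9.17 and 13.1 CPM in the dry libraries, against 28.4, 71.3 and 22.3 CPM in 40 h replicates 1, 2 and 3, again with no overlap. Its log2 fold change was -1.39 and did not pass (edgeR quasi-likelihood test, Benjamini-Hochberg adjusted p = 0.444). Its mean stayed between 193 and 239 CPM from 0 to 32 h of dehydration, and it had 62.9 CPM in the 36 h library. A model that overlaps another on scaffold 261 (1167094 to 1168329, minus strand) was the most abundant of the 10 and the one whose groups overlapped. It had 95.9, 141, 66.9 and 142 CPM in the dry libraries, against 165, 581 and 130 CPM in 40 h replicates 1, 2 and 3, and its mean in undried larvae was 4548 CPM. Its log2 fold change of -1.12 became -0.75 without 40 h replicate 2, which held the highest value by far.

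Among the 10 higher models with the lowest p-values, log2 fold changes ran from 0.55 to 1.80 and adjusted p-values from 0.201 to 0.787 (edgeR's quasi-likelihood test and the Benjamini-Hochberg adjustment). The CPM of the groups did not overlap in 5 of the 10, and 6 of the 10 overlap another model. Over all tested models, every dry library was above every 40 h library in 0.551% on the same CPM and in 2.18% on TMM-scaled CPM. Against 24 h of drying, 7 were called higher and 2 lower in the dry state, where 18.1% and 20.9% of all tested models were. PvG016821, with the lowest p, is a model of 1 exon on scaffold 306 (23428 to 24514, plus strand) that overlaps a model of the opposite strand. It had 601 and 392 CPM at 48 h of dehydration and 457 and 314 CPM at 0 h of rehydration, against 216, 212 and 336 CPM in 40 h replicates 1, 2 and 3, so 1 dry library lay within the range of the 40 h libraries. The log2 fold change was 1.09 (SE 0.17, edgeR quasi-likelihood test, Benjamini-Hochberg adjusted p = 0.201), and DESeq2 called it at 4.97e-07. It had been far higher at 24 h, with a mean of 1876 CPM, and had 266 CPM in the 36 h library, so the dry state stood above 40 h and well below 24 h.

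The most abundant of these higher models lies on scaffold 77834 (1561754 to 1565633, minus strand, 5 exons) and overlaps another model. It had 3977, 3966, 4594 and 3600 CPM in the dry libraries, against 2674, 3213 and 3090 CPM in 40 h replicates 1, 2 and 3, with every dry library above every 40 h library. The log2 fold change was 0.66 (SE 0.12) and did not pass (edgeR quasi-likelihood test, Benjamini-Hochberg adjusted p = 0.377). Its mean was 666 CPM at 24 h, and it had 762 CPM in the 32 h library, 3429 CPM in the 36 h library and 428 CPM in that of 24 h of rehydration, so the greater part of its increase came before 40 h. A 2-exon model on scaffold 7621 (1418 to 1901, minus strand) was low in undried larvae, at 4.98 CPM. It had 1146, 1177, 993 and 1160 CPM in the dry libraries, against 826, 969 and 775 CPM in 40 h replicates 1, 2 and 3. The groups did not overlap, and its log2 fold change was 0.58 (edgeR quasi-likelihood test, Benjamini-Hochberg adjusted p = 0.760). The widest difference among the 10 was in a 1-exon model of scaffold 6309 (353 to 1510, minus strand), with 15.2, 7.81, 10.6 and 11.3 CPM in the dry libraries against 2.05, 7.99 and 2.30 CPM in 40 h replicates 1, 2 and 3. This model overlapped between the groups through 40 h replicate 2, and its log2 fold change of 1.80 was 2.69 without that library. It had 3325 and 4887 CPM in the libraries of 24 and 48 h of rehydration, and a mean of 1.83 CPM in undried larvae. Its mean was 69.2 CPM at 24 h of drying, and it had 27.1 CPM in the 36 h library. The mean of the dry state thus stood above that of 40 h and well below that of 24 h.

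The estimates also show how large a difference the libraries leave room for. The median log2 fold change over all tested models was -0.04 and the median SE 0.36. The 95% interval lay within a 2-fold change either way for 5377 models (44.9%) and within a 4-fold change for 9540 (79.6%), while 735 models (6.14%) had an estimate of at least 2-fold. For the remaining models a larger difference lay within the interval. A comparison of the same size shows the contrast with earlier drying. Dry state against 24 h, again 4 libraries against 3 and with the same dry libraries, called 2370 models higher (18.1%) and 2738 lower (20.9%) of 13080 tested. Over the 11718 models tested in both, log2 fold changes had an SD of 0.49 against 40 h and of 1.24 against 24 h, and 5.59% and 36.0% of the models differed by at least 2-fold.

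**Figure D2:**
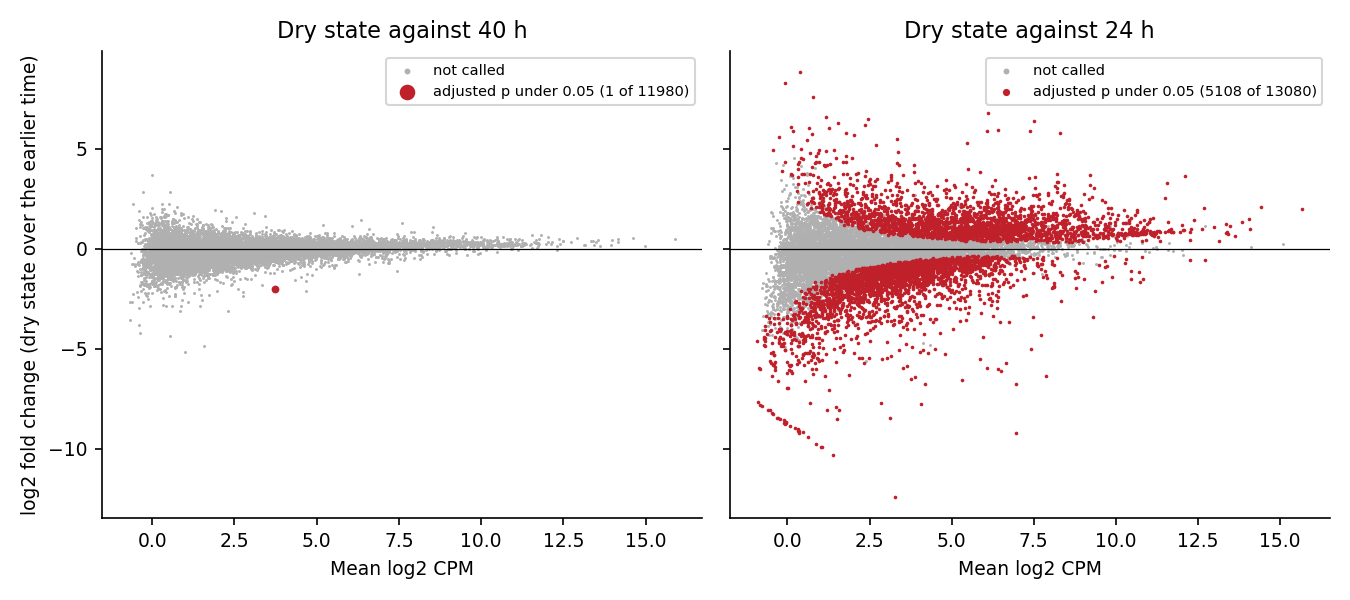
Log2 fold change of each tested model against its mean log2 CPM, for the dry state over 40 h on the left (11980 models) and over 24 h on the right (13080 models). Red points passed an adjusted p of 0.05 and grey points did not. The cloud is narrow on the left, with 1 red point below 0, and wide on the right, with 2370 red points above 0 and 2738 below.

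The medians of models that changed late in drying lay on the same side in the dry state against 40 h as in that earlier change. Lists were formed of models at least 4-fold higher or lower in the 36 h library than in 24 h replicate 2, both of batch 2, with a pseudocount of 1 CPM. These libraries are not among the 7 compared, and the lists were added after the data had been seen. Of 205 tested models that were lower at 36 h, 48 (23.4%) were lower in the dry state at an unadjusted p under 0.05 and 1 (0.488%) was higher, against 2.58% lower and 2.64% higher of all tested models, with a median log2 fold change of -0.53 over the 96 with a mean CPM of at least 5. PvG032109 was among the 48 and passed, and no other model of the list did. Of 457 tested models that were higher at 36 h, 58 (12.7%) were higher in the dry state at an unadjusted p under 0.05 and 2 (0.438%) were lower, set against the same shares of all tested models, with a median of 0.28 over the 290 at that level, and none passed. Over all 6804 tested models at that level the median was 0.02. Of those 6804, 291 were higher and 210 lower at an unadjusted p under 0.05. At the same level, 1 was higher and 35 lower of the 96, and 54 were higher and 1 lower of the 290.

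The medians moved in steps with the size of the earlier change. Models that had changed by between -3 and -2 on the log2 scale from 24 to 36 h had a median of -0.47 in the dry state against 40 h (n = 77), and those between -2 and -1 had -0.18 (n = 597). Models within 1 on either side had a median of 0.00 (n = 4893), those between 1 and 2 had 0.16 (n = 928) and those between 2 and 3 had 0.28 (n = 229). Library by library, the separation was partial. Relative to each model's mean over the 40 h libraries, on the scaled log2 CPM, the median of the list lower at 36 h was -0.42, -0.67, -0.72 and -0.23 in the dry libraries, against -0.04, 0.22 and -0.25 in 40 h replicates 1, 2 and 3. The list higher at 36 h had medians of 0.25, 0.34, 0.31 and 0.09 in the dry libraries, against 0.05, -0.16 and 0.13. In both lists rehydration 0 h replicate 2 was the dry library nearest to 40 h, 40 h replicate 2 was the library farthest from the dry state, and the groups overlapped. Without 40 h replicate 2 the medians were -0.47 and 0.19, and with scaling by total counts alone, which moved the median of all tested models to -0.27, they were -0.76 and 0.06. The 36 h library, which chose the lists, lay beyond all 3 of the 40 h libraries in both. Against the mean of the 0 h libraries, the list lower at 36 h had a median of -2.51 in that library, within the range of the dry libraries. The list higher at 36 h had a median of 2.90 there, above all dry libraries (2.43 to 2.69).

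**Figure D3:**
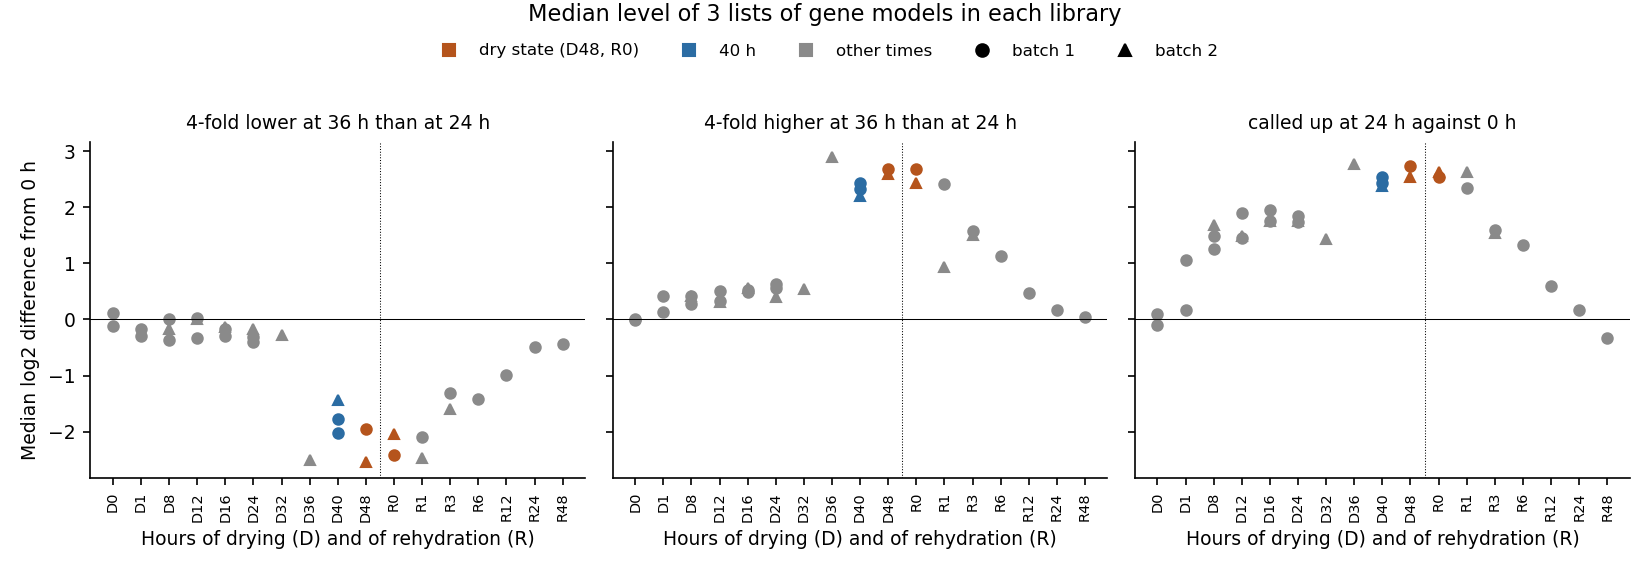
Median log2 difference from the mean of the 0 h libraries, in each library, for models at least 4-fold lower at 36 h than at 24 h (left), at least 4-fold higher (middle) and called up at 24 h against 0 h (right), against hours of drying (D) and of rehydration (R). Orange points are the dry state, blue points 40 h and grey points other times, circles batch 1 and triangles batch 2. In the left panel the dry libraries reach from -2.55 to -1.95 and the 40 h libraries from -2.02 to -1.44, and the medians of all 3 lists return toward 0 after rewetting.

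Models called early in drying were examined next. In a separate fit of the 5 libraries at 24 and 0 h, 232 models were called up (1.74%) and 230 down (1.73%) of 13320 tested, and these libraries are not used in the comparison of the dry state with 40 h. Of 228 tested models up at 24 h, 30 (13.2%) were higher in the dry state than at 40 h at an unadjusted p under 0.05 and 7 (3.07%) were lower, against 2.64% and 2.58% of all tested models, with a median of 0.16 over the 218 at a mean CPM of at least 5. The median was 0.05 without 40 h replicate 2 and -0.05 with scaling by total counts alone, so its sign depended on the scaling. That scaling also moved the median of all tested models, from -0.04 to -0.27, and the list stayed above it. Of 201 tested models down at 24 h, 17 (8.46%) were higher and 18 (8.96%) lower at an unadjusted p under 0.05, both above the shares over all tested models, with a median of 0.03 over the 149 at that level. None of these models passed. At a mean CPM of at least 5, 30 of the 218 up at 24 h were higher and 6 lower at an unadjusted p under 0.05. Of the 149 down at 24 h, 17 were higher and 15 lower, and of all 6804 tested models at that level, 291 and 210 were.

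The longest runs of neighbouring genes called up at 24 h had similar summed levels in both states. The 3 members of 1 run (93228 to 98047 on its scaffold) summed to 11584 ± 1359 CPM (SD, n = 4) in the dry state and 11965 ± 1436 CPM (SD, n = 3) at 40 h, while the mean was 2962 CPM in undried larvae. A run of 5 (109542 to 123647), of which 4 overlap another model, summed to 12692 ± 1646 CPM (SD, n = 4) in the dry state and 13986 ± 1542 CPM (SD, n = 3) at 40 h. Another run of 5 (326592 to 333023) had 2945 ± 368 CPM (SD, n = 4) in the dry state and 3017 ± 182 CPM (SD, n = 3) at 40 h. A run of 4 on scaffold 298 (32671 to 40100) had 601 ± 97.4 CPM (SD, n = 4) in the dry state and 655 ± 237 CPM (SD, n = 3) at 40 h. In these 4 runs the difference in summed level was smaller than the SD of either group. The remaining run of 4 (129428 to 133949) had 448 ± 60.7 CPM (SD, n = 4) in the dry state and 512 ± 97.4 CPM (SD, n = 3) at 40 h. No member of the 5 runs passed, and after scaling their mean log2 fold changes lay between -0.23 and 0.20, the highest on scaffold 298. No run of neighbouring models was called in the dry state against 40 h.

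The most abundant messages took a like share of the counts in both states. The 20 models with the highest mean share made up 32.6 and 29.5% of all counts at 48 h of dehydration and 32.8 and 27.2% at 0 h of rehydration, against 33.5, 23.6 and 29.4% in 40 h replicates 1, 2 and 3. The groups overlapped, and replicate 2 at 40 h was lowest. The same models averaged 22.4% at 24 h and 10.2% in undried larvae. After scaling, all 20 had log2 fold changes above 0, between 0.12 and 0.54 with a median of 0.35, and none passed. At an unadjusted p under 0.05, 11 were higher, against 2.64% of all tested models. Among the 6804 tested models with a mean CPM of at least 5, 291 were higher at that p. The median of the 20 was 0.19 without 40 h replicate 2 and 0.13 with scaling by total counts alone. The 95% interval lay within a 2-fold change for 19 of the 20. The 20 lie on 13 scaffolds and 10 of them overlap another model, some of them each other, so they may not be separate counts. The leading model, on scaffold 5445 (112 to 3838, minus strand, 1 exon), alone held 6.45 and 6.15% of the counts at 48 h of dehydration and 7.45 and 5.36% at 0 h of rehydration, against 6.05, 4.52 and 5.67% in 40 h replicates 1, 2 and 3.

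**Figure D4:**
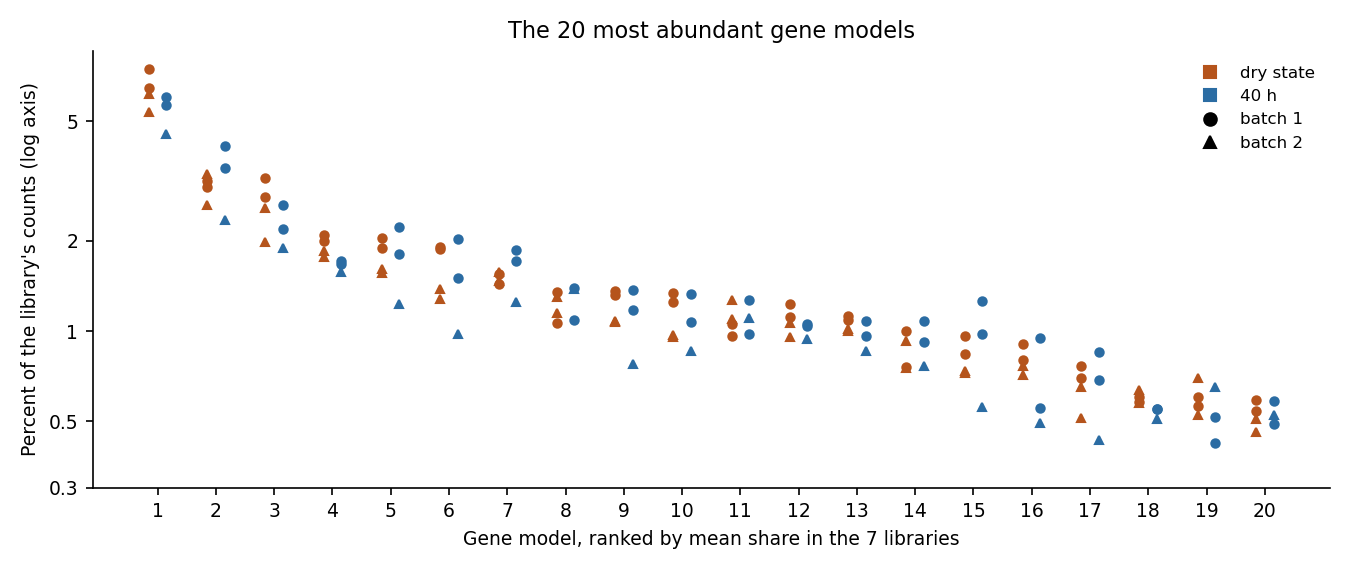
Percent of each library's counts held by each of the 20 most abundant models, on a log axis, with the 4 dry libraries (orange) left of the 3 libraries at 40 h (blue), circles for batch 1 and triangles for batch 2. The models are ranked by their mean share in the 7 libraries, and the groups overlap in 18 of the 20. The other 2 were higher in every dry library. Over all tested models, CPM were above in every dry library in 0.551% and below in 6.14%.

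Structural classes of gene models had medians close to that of all tested models. Medians were 0.00 for 825 tested models of 1 exon, -0.07 for 4950 of 2 to 3 exons, -0.04 for 5358 of 4 to 11 exons and 0.01 for 593 of 12 or more, and they lay between -0.09 and -0.02 in 5 bins of exonic length. Models that overlap another had a median of -0.03 and the others of -0.05. The 253 tested models with no strand had a median of 0.13, and over the 46 of them at a mean CPM of at least 5 it was 0.23, but -0.22 without 40 h replicate 2.

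Transcripts seen in only 1 of the states were rare. No model had at least 10 counts in every dry library and 0 in all 40 h libraries. The converse, at least 10 counts in each 40 h library and 0 in all 4 dry libraries, held for 5 models on scaffolds 1310, 2127, 5658, 648 and 7370. They had 10 to 60 counts per 40 h library, below the level that was tested. Against a floor of 3 counts over the 4 dry libraries together, 0.0300 CPM, they were at least 14.01-fold to at least 39.5-fold lower in the dry state. Floors cover counting error only, the models were chosen for this pattern, and 3 of the 5 overlap another model.

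The dry state pooled libraries of different labels, which were then compared with each other. At 0 h of rehydration against 48 h of dehydration, 1 model was higher (0.00835%) and 0 were lower (0%) of 11980 by edgeR's quasi-likelihood test and the Benjamini-Hochberg adjustment. At an unadjusted p under 0.05, 168 were higher (1.4%) and 103 lower (0.86%), and DESeq2 called 5 higher and 0 lower. The model that rose was PvG021341, a 2-exon model on scaffold 41978 (2309 to 3646, plus strand). It had 418 and 319 CPM at 0 h of rehydration, against 115 and 92.0 CPM at 48 h of dehydration, and 126, 97.1 and 137 CPM in 40 h replicates 1, 2 and 3. Both rehydration libraries were thus well above all 5 of the others, while 48 h and 40 h overlapped. The log2 fold change was 1.82 (SE 0.21, edgeR quasi-likelihood test, Benjamini-Hochberg adjusted p = 0.0446). The call was lost without any 1 library except 40 h replicate 2, with adjusted p-values of 0.0583 to 1.

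PvG021341 overlaps a minus strand model (2455 to 3538) that lies wholly within its span and had the same pattern. This model had 136 and 108 CPM at 0 h of rehydration, against 30.3 and 46.1 CPM at 48 h of dehydration, and 40.8, 35.1 and 59.1 CPM in 40 h replicates 1, 2 and 3. Its log2 fold change of 1.65 did not pass (edgeR quasi-likelihood test, Benjamini-Hochberg adjusted p = 1.00), and since the use of strand in counting is not given, reads of the 2 models cannot be told apart. On scaffold 306, models of opposite strands with the same ends (25185 to 28002) had equal CPM in every library compared. Whether the shared pattern on scaffold 41978 comes from shared reads was not tested. PvG021341 was almost silent in undried larvae, at 0.0842 and 1.65 CPM. It had 253 CPM in the 36 h library and 712 CPM in replicate 1 at 1 h of rehydration, and 7.45 CPM in replicate 2 at that time, a library of batch 2 that detected 8035 models, the fewest of the 33. By 3 h of rehydration it had 141 and 130 CPM, close to 40 h.

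Each label was also set against 40 h alone, and these comparisons share the 40 h libraries. At 48 h of dehydration, 0 models were called higher (0%) and 0 lower (0%), with 221 (1.84%) and 402 (3.36%) at an unadjusted p under 0.05. At 0 h of rehydration, PvG021341 was the 1 model called higher (0.00835%, edgeR quasi-likelihood test, Benjamini-Hochberg adjusted p = 0.0100) and 0 were lower (0%), with 111 (0.927%) and 192 (1.6%) at an unadjusted p under 0.05. PvG032109 had log2 fold changes of -1.98 at 48 h of dehydration and -2.03 at 0 h of rehydration, and PvG011112 of -1.86 and -2.38, so both labels of the dry state gave like values for these.

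Within batches, the comparison was limited by the number of libraries. Batch 1 alone, with 2 libraries in each state, called 0 of 10402 models, and batch 2 held 2 dry libraries and a single library at 40 h. PvG032109 had a log2 fold change of -2.18 in batch 1 alone and -1.73 in batch 2 alone. Of 123 models at least 2-fold lower in batch 1 at an unadjusted p under 0.05, 84 (68.3%) were also lower in batch 2, against 54.3% of all tested models, and of 65 at least 2-fold higher, 25 (38.5%) were also higher, against 45.7%. These counts were not tested. Without 40 h replicate 2, no model passed in either direction (0% and 0% of 11399), with 272 higher (2.39%) and 207 lower (1.82%) at an unadjusted p under 0.05. That fit also takes its fold changes from batch 1.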

How the data were processed

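Messenger RNA of whole larvae was sequenced in 33 libraries, of which 7 enter the main comparison. Read counts for 28415 gene models on 6190 scaffolds were deposited, as whole numbers and unnormalized. The submitters' processing notes name TopHat2, and its version, the genome build and the use of strand in counting are not given in the sources used here. Models that overlap another (36.2%) are therefore uncertain. None of the IDs (0) matched the RefSeq gene table of assembly Pv_5.2, so IDs have no names and no sequence is shown. Libraries were grouped by title.

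Models that reached 1 CPM in 3 or more of the 7 libraries were tested in R 4.3.3 with limma 3.58.1 and edgeR 4.0.16, using the quasi-likelihood F-test of edgeR (robust dispersion, TMM factors, a batch term) and Benjamini-Hochberg adjustment at 0.05. Printed CPM are counts scaled to the library's total and fold changes come from the scaled fit. Medians by library use log2 CPM with a prior count of 2. SEs are the log2 fold change over the root of F, and intervals are at 95%. The fit was tested on simulated counts. Counts of replicates differed by far more than sampling noise, so no library was taken as a duplicate. Since IDs have no names, up to 2 models per direction were to be named, among those past the threshold, at least 2-fold changed, with a mean CPM of at least 5, no overlap between groups and no overlapping model. PvG032109 alone met this, and the other models were chosen after their values were seen. Alternatives were DESeq2 1.42.0, other scalings and filters, no batch term, a replicate block, all libraries, single batches, a 1.5-fold threshold within the test, and leaving out each library. The comparison, the members and the lists were chosen with earlier results of these data known. The lists from 36 h, the 20 most abundant models, the comparison with 24 h, batch 2 alone and the filter at 2 libraries were added after seeing the data.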

Additional observations from a re-analysis of the deposited data

Results flagged for a closer look

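In the dry libraries, 3 models stood out in 1 library, rehydration 0 h replicate 2. A model with no strand on scaffold 17825 (3 to 1624) held 2.34% of that library's counts, against 0.0866, 0.180 and 0.235% in the other dry libraries, and 0.0856, 0.316 and 0.410% in 40 h replicates 1, 2 and 3. The models on scaffolds 2961 (33287 to 33822) and 19686 (1 to 500) held 0.321 and 0.307% of it, against at most 0.0314 and 0.0296% in the other dry libraries. Their shares moved together, with the first between 6.93 and 8.43 times the second and between 6.96 and 9.92 times the third in the 7 libraries. The first had 1.52% in the batch 2 library at 24 h, 7.31% at 32 h and 0.310% at 36 h. None passed in the dry state against 40 h, with a log2 fold change of 0.50 (SE 1.44) for the first. A library far from the other dry libraries was looked for in 17 measures and found in these 3. The 3 models had been picked for the most counts in that library among the list lower at 36 h. Their standing apart there was thus favoured by the choice, and no chance rate applies to it.

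PvG021341 differed between the labels pooled as dry state, with a log2 fold change of 1.82 at 0 h of rehydration against 48 h of dehydration, as given above.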

How the results depend on the processing

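The log2 fold change of PvG032109 stayed between -2.22 and -1.73 in all 21 alternatives, and its adjusted p lay between 2.40e-08 and 1.00, with the call lost in 15 of them. DESeq2 gave it no adjusted p. The fits without 40 h replicate 2, with that library counted as dry and with batch 1 alone all took fold changes from batch 1. They gave PvG032109 values of -2.18, -2.19 and -2.18, so they are not separate checks. For the dry state against 40 h, the count of lower models was 0 with RLE scaling, with a replicate block, with all 33 libraries, with 40 h replicate 2 counted as dry, with batch 1 alone, with batch 2 alone and in the test against a 1.5-fold change. It was 2 with total counts alone, 2 with DESeq2, 37 with no filter and 8 with 32 libraries (without rehydration 1 h replicate 2), and 0 to 0 when each library was left out. The count of higher models was 23 with DESeq2 and 13 with no filter, and 0 in the other 20 alternatives. For 0 h of rehydration against 48 h of dehydration, the count of higher models was 0 with RLE scaling, without the batch term, with a replicate block and with all 33 libraries, 5 with DESeq2, 7 with no filter, and 0 to 1 when each library was left out. The count of lower models was 1 with no filter. The cause of these changes was not tested. No called value changed sign. The count of models at an unadjusted p under 0.05, 625, lay between 110 and 1714.

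Replicate numbers were not taken to pair the libraries, since the deviations of same-numbered libraries correlated at -0.04 to 0.10. The number also goes with the batch in the 7 libraries, replicate 2 being of batch 2 and replicates 1 and 3 of batch 1. With a replicate block the adjusted p of PvG032109 was 0.207 and that of PvG021341 between the labels 0.290 (edgeR quasi-likelihood test, Benjamini-Hochberg). Replicate 3 occurs only at 40 h, so the block fit takes no fold change from that library. It gave PvG032109 a log2 fold change of -2.07, as did leaving out 40 h replicate 3, so it is not a separate check. Medians of the lists from 36 h and of the 20 most abundant models kept their sign in all 21 alternatives, and that of models up at 24 h in 20 of 21. Of the 5 runs up at 24 h, the one at 326592 to 333023 was least stable, with mean log2 fold changes of -0.41 to 0.73. The difference in models detected changed sign without 40 h replicate 2 and in batch 1 alone, to 39.8 and 764 more in the dry state. With 4 libraries against 3 the median SE was 0.36, which limits what could be called.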
